A study of Mus musculus with 10 samples.

Results

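Receptors of natural killer (NK) cells outside the Ly49 family were followed through 10 libraries of mouse blood RNA: Klrk1, Klre1, Klrd1, Klrc1, Klrc2, Klrb1c, Klrg1 and Ncr1. These 8 genes were taken by symbol from a table of 30984 genes, and all 8 were found once each and passed the filter on low counts. The libraries fall into 6 labelled burn wound healing, called burn here, and 4 carrying the same words with the letters NC, called NC here. Both groups are whole blood by source label, with the further words lymphocyte and monocytes, and the series title speaks of PBMCs, blood mononuclear cells prepared without most granulocytes. The labels give no strain, age, sex or time after injury, do not expand NC, and do not tie manganese chloride, which the title names, to any library. Nothing says that the libraries came from separate animals, so every p-value here reflects library-to-library spread alone, and part of that may be technical.

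NK cells decide whether to kill a target by adding up signals from activating and inhibitory surface receptors, many of them encoded together in the NK gene complex. CD94, the product of Klrd1, pairs with NKG2A (Klrc1) to inhibit or with NKG2C (Klrc2) to activate, and both pairs read the non-classical MHC molecule Qa-1 on other cells. NKG2D (Klrk1) works without CD94 and recognises stress-induced ligands. Several of these receptors are also carried by activated or memory CD8 T cells, so their transcripts in blood need not come from NK cells.

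By GENCODE release M21 on mm10, the build named in the submitters' processing notes, 7 of the 8 genes lie on chromosome 6 and all 8 are protein coding. Klre1 (129577905 to 129585827, plus strand), Klrd1 (129591782 to 129598775, plus), Klrk1 (129610323 to 129623864, minus), Klrc2 (129647496 to 129660689, minus) and Klrc1 (129666015 to 129678973, minus) are neighbours. Klrb1c (128778485 to 128789215, minus) lies in the same complex and Klrg1 (122270596 to 122282882, minus) farther off, while Ncr1 is on chromosome 7 (4337724 to 4345164, plus). Reads of Klrc1 and Klrc2 may be hard to tell apart: 24.7% of the 75-base stretches of the Klrc1 transcripts also occur in those of Klrc2, and 8.32% the other way round. No other pair among the 28 shares such a stretch. Only the 8 genes were compared with one another, so stretches shared with genes outside this set were not looked for. Klrb1c shares 413 exon bases with the predicted gene Gm44511 on the same strand. The authors' handling of shared reads is not given in the sources used here. The separate values of Klrc1, Klrc2 and Klrb1c are therefore uncertain at least to that extent.

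The promoters of 4 receptors are shown because they stand for the patterns described further on: Klrk1 and Klrc1 were highest in NC 2 and NC 3, Ncr1 was highest in NC 1, and Klrc2 followed neither. Each runs from 250 bases before to 50 bases after the first transcription start in the RefSeq promoter table (GRCm38.p6), 5′ to 3′ on the gene's own strand. Capitals mark TGTGGT or its reverse complement ACCACA, the core read by RUNX factors, which are known regulators of NK and CD8 T cell genes. Klrk1 (chr6:129623815-129624114, minus strand), Klrc1 (chr6:129678924-129679223, minus), Klrc2 (chr6:129660547-129660846, minus) and Ncr1 (chr7:4337465-4337764, plus) read as follows.
Klrk1: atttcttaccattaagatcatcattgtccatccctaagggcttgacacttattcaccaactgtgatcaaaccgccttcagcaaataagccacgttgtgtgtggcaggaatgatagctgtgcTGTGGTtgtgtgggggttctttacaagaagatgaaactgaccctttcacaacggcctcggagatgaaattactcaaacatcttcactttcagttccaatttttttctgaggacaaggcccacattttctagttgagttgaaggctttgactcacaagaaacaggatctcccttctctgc
Klrc1: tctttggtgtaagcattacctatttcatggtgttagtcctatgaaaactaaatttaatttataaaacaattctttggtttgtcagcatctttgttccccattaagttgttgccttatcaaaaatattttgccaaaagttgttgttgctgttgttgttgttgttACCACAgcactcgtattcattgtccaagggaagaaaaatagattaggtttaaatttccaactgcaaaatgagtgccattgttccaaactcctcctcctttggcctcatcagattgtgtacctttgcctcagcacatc
Klrc2: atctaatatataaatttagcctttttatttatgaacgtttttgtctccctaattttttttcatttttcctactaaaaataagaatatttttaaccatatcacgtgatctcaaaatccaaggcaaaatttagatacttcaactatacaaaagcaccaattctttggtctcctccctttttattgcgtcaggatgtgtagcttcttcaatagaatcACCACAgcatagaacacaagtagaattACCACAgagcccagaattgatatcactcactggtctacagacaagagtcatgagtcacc
Ncr1: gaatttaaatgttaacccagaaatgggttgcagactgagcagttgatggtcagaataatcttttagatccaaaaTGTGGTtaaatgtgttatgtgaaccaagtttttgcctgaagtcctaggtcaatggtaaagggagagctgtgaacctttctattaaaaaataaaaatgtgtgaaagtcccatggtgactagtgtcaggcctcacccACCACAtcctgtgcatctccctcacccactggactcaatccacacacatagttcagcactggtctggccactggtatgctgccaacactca
The core occurred in the promoter of all 6 members that the table held under their symbols (Klrk1, Klre1, Klrc1, Klrc2, Klrb1c and Ncr1), and in 16.9% of 27025 promoters of the same length. GGAAGT or its reverse, a core of ETS factors, occurred in 1 of the 6, Klrb1c, against 24.1% of all promoters. GGTGTGA or its reverse, a short site of T-box factors such as EOMES and T-bet, occurred in 0 of the 6, against 3.96%. The 3 motifs share no letters with one another at any of these positions. These matches are descriptions of the letters only.

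Library totals ran from 30677206 to 36379663 counts, and a member had between 221 counts (Klrg1 in NC 4) and 2898 counts (Klrk1 in NC 2), so counting error was small beside the spread between libraries. Libraries of one group were not copies of one another: comparing counts pairwise, chi-square over its degrees of freedom was at least 15.7 within burn and 77.3 within NC. Markers of T cells, CD8 T cells, B cells, monocytes, neutrophils, platelets and red cells were all detected, so granulocyte and red cell RNA was present beside that of mononuclear cells. The NC libraries stood apart from one another in cell type markers. The summed level of 10 neutrophil markers was 772 to 2314 CPM (counts scaled to the library total, with TMM factors) in burn, against 5970, 577, 957 and 4541 CPM in NC 1 to NC 4. The 2 CD8 chain genes summed to 229 to 296 CPM in burn, against 215, 351, 402 and 218 CPM in NC 1 to NC 4.

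All 8 receptor genes had lower fitted values in burn than in NC, but none passed the test across genes. The 8 genes together summed to 135 to 172 CPM in the burn libraries, against 232, 381, 344 and 119 CPM in NC 1 to NC 4. NC 1, NC 2 and NC 3 were thus above every burn library and NC 4 was below every one. The median log2 difference of burn minus NC over the 8 genes was -0.93, beside 0.02 over all 17268 genes tested, of which 45.3% had a lower value in burn. In edgeR's quasi-likelihood test with Benjamini-Hochberg adjustment over all genes, 0 of the 8 passed at an adjusted p under 0.05, where the share of all genes called was 0%. At an unadjusted p under 0.05, 6 of the 8 were lower, namely Klrk1, Klrc2, Klrc1, Klre1, Klrg1 and Klrb1c, beside 7.00% of all genes. DESeq2 called 2 of them lower, Klrk1 and Klrc1, beside 0.405% of all genes. Groups did not overlap for 0 of the 8, beside 0.683% of all genes that were lower in burn without overlap. In bulk blood, fewer cells of a type and less RNA per cell cannot be told apart.

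**Figure D1:**
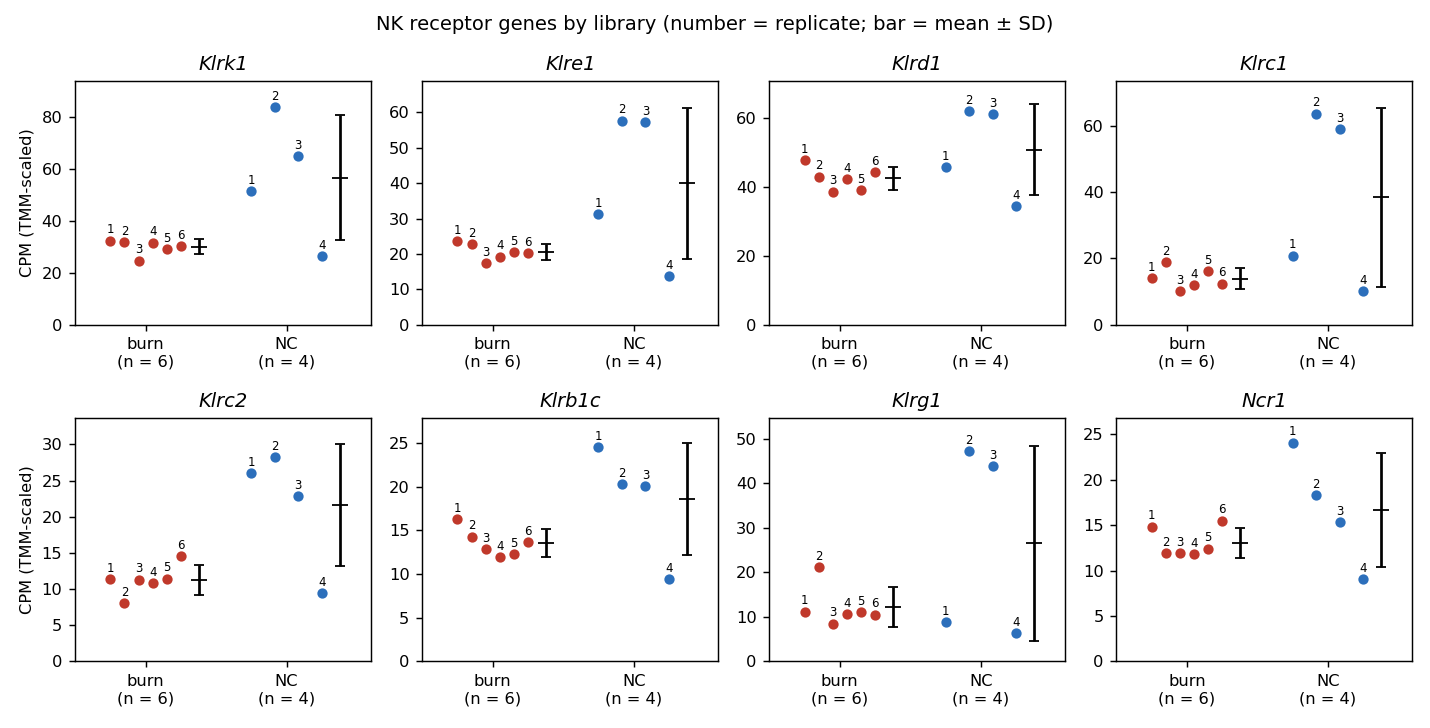
TMM-scaled CPM of each receptor gene in every library, with burn (n = 6, red) left of NC (n = 4, blue); numbers are replicate numbers and black bars are mean ± SD. NC 2 and NC 3 stand highest for Klrk1, Klre1, Klrd1, Klrc1 and Klrg1, and NC 1 stands highest for Klrb1c and Ncr1. NC 4 lies below all burn libraries in every panel except Klrk1 and Klrc2, though for Klrc1 only by 10.137 against 10.150 CPM.

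Klrk1 encodes NKG2D, the activating receptor for stress-induced ligands that signals through DAP10 and, in mouse, also DAP12. Its lowest, median and highest values in burn were 24.7, 31.0 and 32.4 CPM, against 51.4, 83.9, 64.8 and 26.4 CPM in NC 1 to NC 4. NC 1, NC 2 and NC 3 lay above all burn libraries, and NC 4 lay inside the burn range. Mean CPM was 30.0 ± 2.9 across the 6 burn libraries and 56.6 ± 24.1 across the 4 NC libraries (± SD). In edgeR the log2 difference was -0.92 (SE 0.23, 95% interval -1.42 to -0.41), the adjusted p 0.39 and the rank by p 65 among all genes. The DESeq2 adjusted p was 0.043. Both fits used a shared estimate of spread for both groups, although the SD of log2 CPM was 0.15 in burn and 0.71 in NC. An exact two-sided permutation test of log2 CPM that enumerates all 210 assignments of the libraries gave p = 0.029, with 0.0048 the smallest it can give. At that test's unadjusted p under 0.05, 3.91% of all genes were lower in burn. The permutation test treats libraries of both groups as exchangeable, so it does not allow for the unequal spread either. Without NC 4, the lowest NC library for each of the 8 genes, the edgeR difference had to widen. It was -1.20, with an adjusted p of 0.025, where the 21 alternatives run gave adjusted p-values of 0.025 to 0.86. Without both NC 2 and NC 3 it was -0.40, with an adjusted p of 0.33, and 0 of the 8 receptors passed in that fit, which called 2.06% of all genes.

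Klrd1 encodes CD94, the shared partner of NKG2A and NKG2C, and varied least. It had 38.5, 42.5 and 47.7 CPM as lowest, median and highest in burn, against 45.5, 61.9, 60.9 and 34.3 CPM in NC 1 to NC 4. NC 1 fell inside the burn range here, so that NC 2 and NC 3 alone exceeded it. The edgeR log2 difference was -0.26 (SE 0.15, adjusted p 0.52), and without both NC 2 and NC 3 it was 0.06.

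Klrc1 encodes NKG2A, the inhibitory partner of CD94, and showed the widest fitted difference of the 8. Burn libraries had 10.2, 13.2 and 18.8 CPM as lowest, median and highest, against 20.8, 63.6, 59.0 and 10.1 CPM in NC 1 to NC 4. Mean CPM was 13.9 ± 3.1 across the 6 burn libraries and 38.4 ± 26.9 across the 4 NC libraries (± SD), and the NC libraries differed among themselves by 6.28-fold from highest to lowest. The log2 difference was -1.46 (SE 0.41, 95% interval -2.36 to -0.57), with an edgeR adjusted p of 0.39, a DESeq2 adjusted p of 0.0496 and an exact permutation p of 0.071. Without both NC 2 and NC 3 the difference was -0.18.

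Klrc2 encodes NKG2C, the activating partner of CD94. It had 8.04, 11.4 and 14.6 CPM as lowest, median and highest in burn, against 26.1, 28.3, 22.8 and 9.45 CPM in NC 1 to NC 4. Unlike Klrc1, its NC 1 value stood with NC 2 and NC 3, all 3 above the burn range. The log2 difference was -0.94 (SE 0.25), the edgeR adjusted p 0.39, the DESeq2 adjusted p 0.062 and the exact permutation p 0.043. Leaving out NC 2 and NC 3 together gave -0.69. Leaving out NC 4, the lowest NC library, had to widen the difference. It gave -1.24 with an adjusted p of 0.025 (0.025 to 0.86 over the 21 alternatives). Klrc2 and Klrk1 were then 2 of 3 genes called in the whole table (0.0170%).

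Klre1 encodes a CD94-related lectin that in mouse pairs with KLRI1 or KLRI2. Its values were 17.3, 20.3 and 23.6 CPM as lowest, median and highest in burn, against 31.2, 57.7, 57.2 and 13.8 CPM in NC 1 to NC 4. No NC library fell inside the burn range: 3 were above it and NC 4 below it. The log2 difference was -0.96 (SE 0.30, edgeR adjusted p 0.39), and -0.15 without both NC 2 and NC 3.

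Klrg1 encodes an inhibitory receptor for cadherins that marks mature NK cells and effector T cells. Burn had 8.49, 10.8 and 21.2 CPM as lowest, median and highest, against 8.81, 47.2, 43.8 and 6.29 CPM in NC 1 to NC 4. NC 2 and NC 3 exceeded every burn library, while NC 1 was near the low end of burn and NC 4 under it. The log2 difference was -1.12 (SE 0.50, edgeR adjusted p 0.44), and without those 2 libraries it turned to 0.66, with an adjusted p of 0.31 (0.12 to 0.90 over the 21 alternatives).

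Klrb1c encodes NK1.1, an activating receptor used as an NK cell marker in some mouse strains, and Ncr1 encodes NKp46, the natural cytotoxicity receptor found on nearly all NK cells. Klrb1c had 11.9, 13.3 and 16.2 CPM as lowest, median and highest in burn, against 24.5, 20.3, 20.1 and 9.45 CPM in NC 1 to NC 4. Ncr1 had 11.9, 12.2 and 15.5 CPM in burn, against 24.1, 18.3, 15.3 and 9.06 CPM in NC 1 to NC 4. For both genes NC 1 was the highest of all 10 libraries and NC 4 the lowest. The log2 differences were -0.46 for Klrb1c (SE 0.21, edgeR adjusted p 0.44) and -0.35 for Ncr1 (SE 0.21, edgeR adjusted p 0.54). Without NC 1 they were -0.29 and -0.12.

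**Figure D2:**
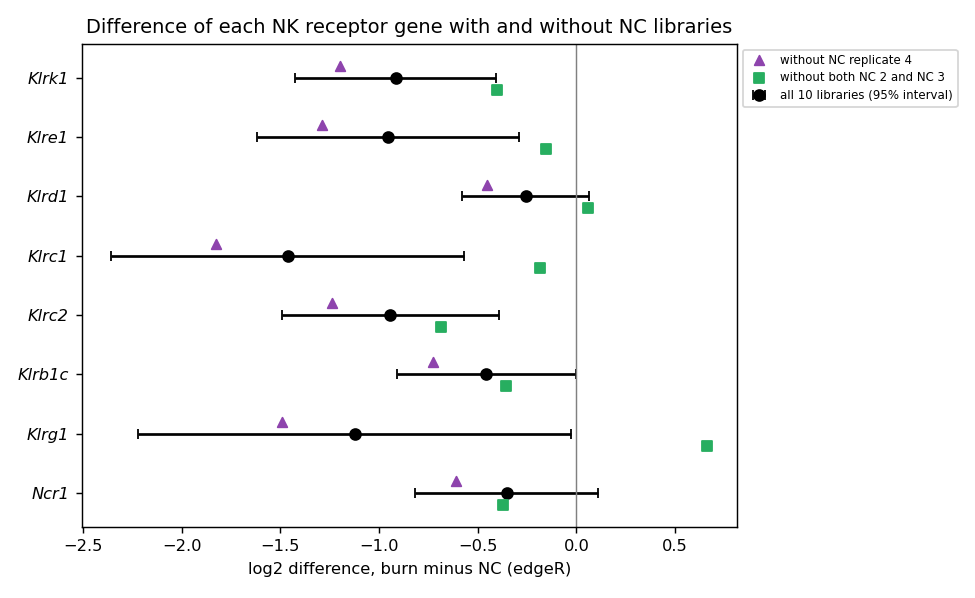
Fitted log2 difference of burn minus NC for each gene with all 10 libraries (black, 95% interval), without NC 4 (purple) and without both NC 2 and NC 3 (green). NC 4 was the lowest NC library for every gene, so leaving it out had to enlarge all 8 differences. NC 2 and NC 3 were the highest libraries for Klrk1, Klre1, Klrd1, Klrc1 and Klrg1, so leaving them out had to lower the NC level of these. Without NC 2 and NC 3 Klrg1 lies at 0.66 and Klrd1 at 0.06, and Klrc2 keeps -0.69.

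The receptors therefore had more than one pattern across the NC libraries. NC 2 and NC 3 were both above every other library for 5 of the 8, Klrk1, Klre1, Klrd1, Klrc1 and Klrg1, beside 3.14% of all genes. NC 4 was below every other library for 6 of the 8, all but Klrk1 and Klrc2, beside 8.02% of all genes. For Klrc1 this was nearly a tie, with 10.137 CPM in NC 4 and 10.150 CPM in burn 3. In the deposited FPKM, which also divides by gene length, NC 4 was the higher of these, at 5.27 against 5.11. The patterns of NC 2 with NC 3 and of NC 4 were picked from these same values. The shares of all genes beside them are therefore no test. From highest to lowest NC library the level differed by 7.49-fold for Klrg1 and 6.28-fold for Klrc1. It differed by 2.60-fold for Klrb1c, 2.66-fold for Ncr1 and 1.80-fold for Klrd1. The SD of log2 CPM was larger within NC than within burn for 8 of 8 members, with a median of 0.72 in NC beside 0.17 in burn. Over all genes the medians were 0.34 in NC and 0.21 in burn, and 75.8% of genes had the larger SD in NC. The edgeR and DESeq2 fits used a shared estimate of spread per gene for both groups. Their SEs, intervals and p-values therefore do not allow for this unequal spread. The exact permutation test does not allow for it either. It treats libraries of both groups as exchangeable, so unequal spread alone can also move its p-values.

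**Figure D3:**
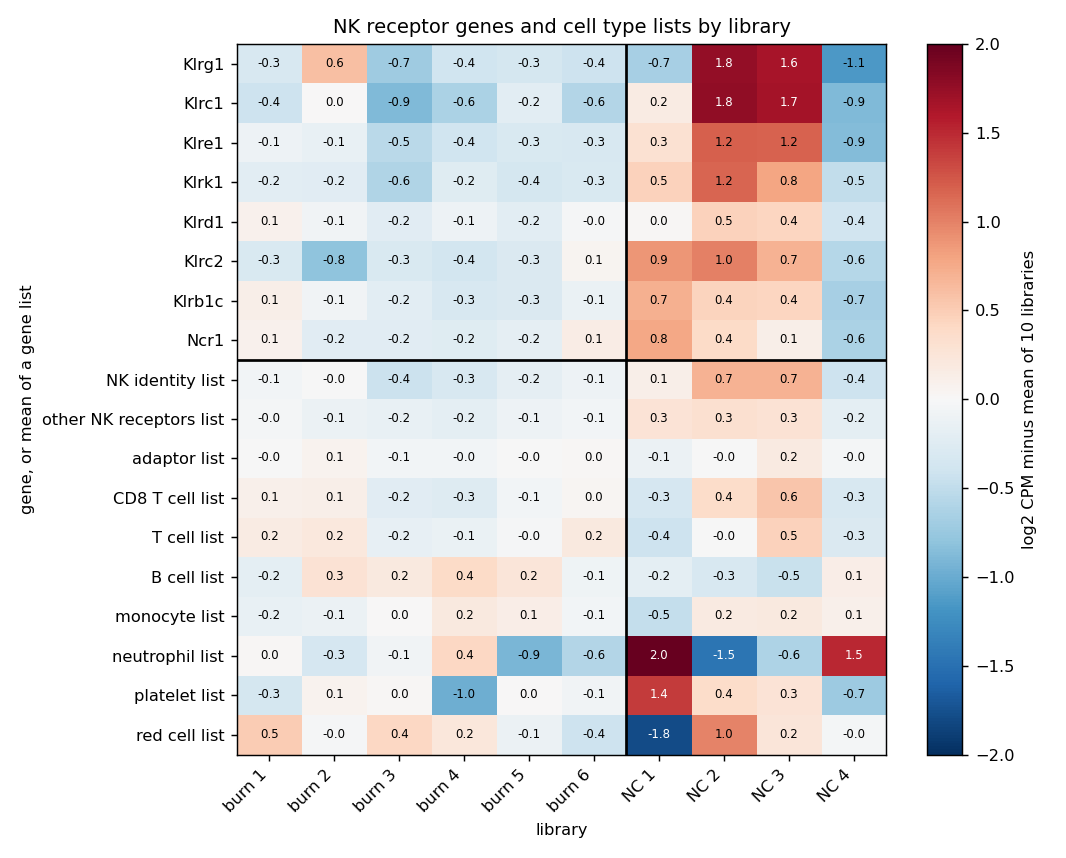
Log2 CPM of each receptor gene, and mean log2 CPM of each gene list, minus its mean over the 10 libraries; burn libraries are left of the vertical line and NC libraries right of it, with list means under the horizontal line. Klrg1 and Klrc1 are dark red in NC 2 and NC 3 alone, and the CD8 T cell list is highest in NC 3 and NC 2. All receptors but Klrd1 and Klrg1 are higher in NC 1 than in any burn library.

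Within burn, library 2 was the highest for Klrg1 and Klrc1, but not for Klrk1, Klre1 or Klrd1, which were highest in burn 1. It had 21.2 CPM of Klrg1, where the next burn library had 11.2, and 18.8 CPM of Klrc1, but the lowest Klrc2, 8.04 CPM. Gzmk, a granzyme found in memory CD8 T cells and some NK cells, ran alongside: burn 2 had 14.7 CPM and the other burn libraries 3.06 to 5.69 CPM, against 4.33, 49.2, 49.0 and 3.19 CPM in NC 1 to NC 4. Among other genes listed for NK cells, Gzma was looked up after values had been seen. It had 81.3 to 150 CPM in burn, with burn 2 the highest, against 131, 269, 312 and 64.9 CPM in NC 1 to NC 4. Prf1, of the same list, had 33.6 to 49.9 CPM in burn, with burn 1 the highest. Its NC 1 to NC 4 values were 55.7, 71.3, 82.4 and 34.8 CPM. Both CD8 chain genes were also highest in NC 2 and NC 3. Cd8a had 122 to 149 CPM in burn, with burn 1 the highest, against 119, 180.0, 179.8 and 115 CPM in NC 1 to NC 4. Cd8b1 had 107 to 152 CPM in burn, with burn 2 the highest, against 96.7, 171, 222 and 103 CPM in NC 1 to NC 4. The part of T cells or of NK cells in these receptor levels was not tested.

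Ratios of 2 receptors in the same library do not depend on library scaling, and 2 were compared; they were picked with earlier results on Klrk1 known. The ratio of Klrk1 to Klrd1 was 0.640 to 0.750 in the burn libraries, against 1.13, 1.35, 1.06 and 0.769 in NC 1 to NC 4. Every burn library was below every NC library, though the gap between NC 4 and the highest burn library was small. On the log2 scale the mean was -0.50 ± 0.09 across burn and 0.08 ± 0.34 across NC libraries (± SD, 6 and 4 libraries), a difference of -0.58. The exact permutation test gave p = 0.0048, the lowest value it can reach, or 0.0095 after adjustment for the 2 ratios compared. Neither p allows for the unequal spread of the groups, or for the choice of this ratio with the lower Klrk1 values known. They are therefore not independent evidence. Of all 28 ratios among the 8 genes, 2 separated the groups. Without both NC 2 and NC 3 the difference was -0.40, with an exact permutation p of 0.036, again the smallest that design allows. Leaving out libraries cannot make separated groups overlap, so that p adds no support.

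The other ratio set the inhibitory against the activating partner of CD94. Klrc1 over Klrc2 was 1.23, 2.34, 0.897, 1.1, 1.41 and 0.850 in burn 1 to burn 6, against 0.800, 2.25, 2.59 and 1.07 in NC 1 to NC 4. Burn 2, NC 2 and NC 3 were the 3 libraries above 2, and the groups overlapped. The log2 difference was -0.28, with an exact permutation p of 0.51. The shared sequence noted above for the 2 genes limits how exactly this ratio is known.

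**Figure D4:**
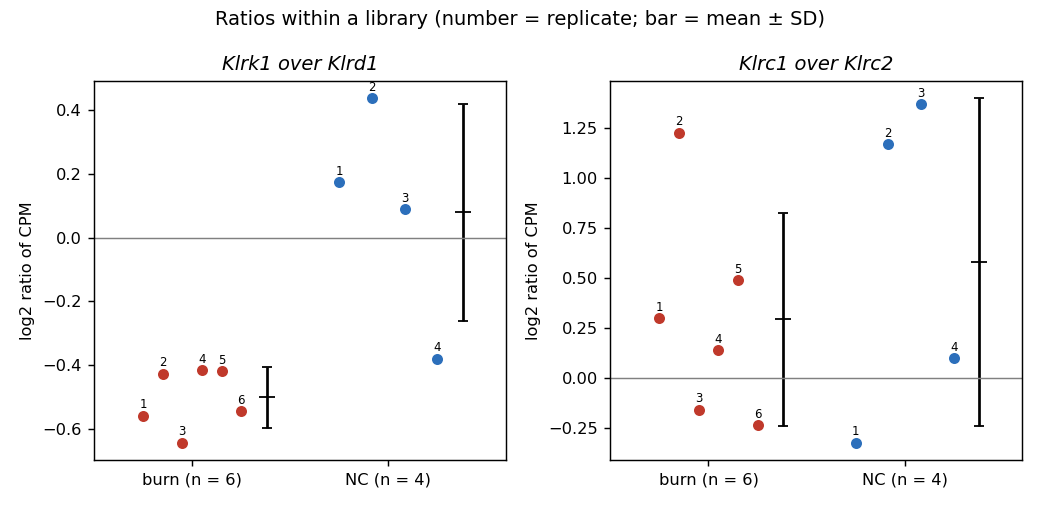
Log2 ratio of CPM within each library for Klrk1 over Klrd1 (left) and Klrc1 over Klrc2 (right), with burn (n = 6, red) left of NC (n = 4, blue), replicate numbers beside the points and mean ± SD as black bars. All 6 burn libraries lie below all 4 NC libraries on the left; on the right burn 2 lies with NC 2 and NC 3.

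Levels can be ordered between genes on the deposited FPKM scale, which divides by gene length. The order depends on that length: all annotated exons together span 7183 bases for Klrk1, 5812 for Klrc2 and 1281 for Klrd1. By mean CPM in burn, Klrk1 at 30.0 came directly after Klrd1 at 42.4. In burn, Klrd1 was highest at 33.6 ± 2.8 FPKM (SD, n = 6), above every other member in all 6 libraries. By mean, Klrg1 followed at 8.69 ± 3.08 FPKM, then Ncr1 at 8.62 ± 1.18, Klrc1 at 7.10 ± 1.52, Klre1 at 5.97 ± 0.62, Klrb1c at 4.63 ± 0.49 and Klrk1 at 4.24 ± 0.42. From Klrg1 to Klrk1 the ranges of neighbours overlapped, and Klrc2 was lowest without overlap at 1.97 ± 0.40 FPKM. Compared within a library, Klrg1 was above Ncr1 in only 1 of the 6 burn libraries. Ncr1 was above Klrc1 in 4 and Klrb1c above Klrk1 in 5, while Klrc1 was above Klre1 and Klre1 above Klrb1c in 6. In NC, Klrd1 was again highest at 38.4 ± 8.8 FPKM (SD, n = 4) and Klrc2 lowest at 3.61 ± 1.36. Between them came Klrc1 at 18.6 ± 12.7 FPKM, Klrg1 at 17.97 ± 14.62, Klre1 at 11.02 ± 5.65, Ncr1 at 10.6 ± 3.9, Klrk1 at 7.63 ± 3.09 and Klrb1c at 6.10 ± 2.04. All neighbours in the NC order overlapped in range. Within a library, Klrd1 was above Klrc1, Ncr1 above Klrk1 and Klrb1c above Klrc2 in all 4 NC libraries. Klrg1 was above Klre1 and Klrk1 above Klrb1c in 3, and Klrc1 above Klrg1 and Klre1 above Ncr1 in 2.

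Ligands of these receptors are displayed by other cells. Of 13 listed, 6 were tested, 2 had lower and 4 higher values in burn, 0 passed in either direction in edgeR or DESeq2, and the median log2 difference was 0.10, beside 0.02 over all genes. H2-T23, which encodes Qa-1, averaged 299 ± 16 CPM in burn libraries and 290 ± 65 CPM in NC libraries. The NKG2D ligand gene Ulbp1 averaged 16.6 ± 1.0 CPM in burn libraries and 15.03 ± 2.82 CPM in NC libraries, and H60b at 2.21 ± 0.69 and 1.84 ± 0.90 CPM in burn and NC. Raet1e, another NKG2D ligand gene, was rare, at 0.71 ± 0.24 CPM in burn libraries and 0.28 ± 0.15 CPM in NC libraries, with a log2 difference of 1.31 (SE 0.44, edgeR adjusted p 0.39). Of the cadherins, Cdh1, whose E-cadherin KLRG1 binds, averaged 4.74 ± 0.37 CPM in burn libraries and 5.80 ± 1.95 CPM in NC libraries, and Cdh2 averaged 1.01 ± 0.28 CPM in burn libraries and 1.66 ± 0.61 CPM in NC libraries, with log2 differences of -0.29 and -0.71 (edgeR adjusted p 0.61 and 0.43).

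Adaptors and proximal signalling molecules changed little in fitted value. Of 19 tested, 0 passed in either direction, 11 had lower and 8 higher values in burn, and the median was -0.04. Tyrobp, which encodes DAP12, averaged 187 ± 17 CPM in burn libraries and 227 ± 35 CPM in NC libraries (log2 difference -0.28, edgeR adjusted p 0.41). Fcer1g, the Fc receptor gamma chain that NKp46 uses, averaged 238 ± 24 CPM in burn libraries and 293 ± 54 CPM in NC libraries. Both are also made by myeloid cells. NC 1 to NC 4 had 225, 180.3, 238 and 265 CPM of Tyrobp and 355, 258, 320.3 and 238 CPM of Fcer1g, beside the neutrophil sums of 5970, 577, 957 and 4541 CPM; NC 4 was thus the highest NC library for Tyrobp and the lowest for Fcer1g. The part of neutrophils in these 2 genes was not tested. Ptpn11, the phosphatase SHP-2 of inhibitory signalling, averaged 170 ± 17 CPM in burn libraries and 222 ± 77 CPM in NC libraries, with 328 CPM in NC 1. Fyn, Vav1 and Plcg2 had log2 differences of -0.20, 0.12 and 0.14. Hcst, which encodes DAP10, the NKG2D adaptor, was looked up after values had been seen: it averaged 21.6 ± 1.7 CPM in burn libraries and 23.2 ± 6.9 CPM in NC libraries (log2 difference -0.10, edgeR adjusted p 0.84).

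Other receptors of NK cells leaned to lower values, with 15 of 18 tested lower in burn, 0 past the threshold and a median of -0.29. Klrb1b, an inhibitory relative of NK1.1, averaged 4.01 ± 0.70 CPM in burn libraries and 6.86 ± 2.46 CPM in NC libraries (log2 difference -0.77, SE 0.23, edgeR adjusted p 0.39). Klri2, which encodes a mouse partner of KLRE1, had 9.71 to 14.4 CPM in burn, against 24.7, 20.1, 16.1 and 9.94 CPM in NC 1 to NC 4. It was highest in NC 1, like Ncr1. Tigit, an inhibitory receptor of NK and T cells, averaged 4.46 ± 0.73 CPM in burn libraries and 7.36 ± 2.58 CPM in NC libraries. Its activating counterpart Cd226 had 158 to 307 CPM in burn, against 882, 343, 360.5 and 168 CPM in NC 1 to NC 4. Platelets carry Cd226 too, and the summed level of 9 platelet markers was 2539 to 5366 CPM in burn, against 13092, 6673, 6137 and 2982 CPM in NC 1 to NC 4. The part of platelets in the Cd226 value was not tested. Fcgr3 (CD16) had a log2 difference of -0.30, and Slamf6, a SLAM family receptor, one of 0.18.

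Transcription factors, granule proteins and cytokine receptors of NK cells had lower values in burn for 23 of 24 tested, with a median of -0.57, 0 past the threshold in edgeR and 1 in DESeq2. That gene was Il18rap, a chain of the IL-18 receptor, with 46.9 to 52.4 CPM in burn, against 117, 105, 65.2 and 76.5 CPM in NC 1 to NC 4. Its NC 4 value lay above the burn range, unlike that of any of the 8 receptors. Eomes, Tbx21, Fasl and Prf1 had log2 differences of -0.88, -0.86, -0.66 and -0.54, and Gzmk one of -2.18 (SE 0.73, edgeR adjusted p 0.39). T cell genes did not share this: 3 of 13 tested were lower, with a median of 0.07, and Cd4 and Themis had log2 differences of 0.19 and 0.15. Cd8a and Cd8b1 had -0.14 and -0.19. The 10 B cell markers all had higher values, with a median of 0.31, led by Fcer2a and Blk at 0.55 and 0.42. Lower values were found for 7 of 10 monocyte markers (median -0.06; F13a1 -0.43, Cx3cr1 -0.26) and 5 of 7 red cell markers (median -0.05; Hba-a1 -0.29, Hbb-bs -0.18). All 10 neutrophil markers (median -1.12; Clec4d -1.40, Il1r2 -1.54) and 9 of 9 platelet markers (median -0.72; Nrgn -0.98, Itga2b -0.76) were lower too. Of the gamma-delta and NKT genes 2 were tested, Trdc at 0.11 and Zbtb16 at -0.41. None of these cell type lists had a member past the threshold in edgeR or DESeq2.

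The genes whose levels over the 10 libraries most resembled the mean standardised profile of the 8 receptors were sought among 13625 others with a mean of at least 1 CPM. By Pearson r the first 10 were Arsb (0.96), Ptpn13 (0.96), Eomes (0.96), Gzmb (0.96), Klra9 (0.95), Crmp1 (0.95), Samd3 (0.95), Tbx21 (0.95), Prf1 (0.95) and Sytl3 (0.94). Eomes and Tbx21 encode transcription factors of cytotoxic lymphocytes, Gzmb and Prf1 granzyme B and perforin, Klra9 a Ly49 receptor, and Arsb a lysosomal sulfatase. Without NC 2 and NC 3, r was 0.97 for Ptpn13, 0.96 for Klra9 and 0.92 for Arsb, and lowest for Tbx21 at 0.82. Over the 6 burn libraries alone it was 0.97 for Prf1, 0.96 for Ptpn13 and 0.92 for Eomes, but 0.56 for Tbx21 and 0.41 for Sytl3.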

How the data were processed

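Paired-end mRNA libraries of total RNA extracted with TRIzol were sequenced, per the labels' protocols. The deposited table held a whole-number read count and an FPKM value per gene and library, per the file headers; the authors' FPKM equalled the counts divided by column total and one length per gene, within a relative gap of 7.3e-15. The submitters' processing notes name mm10 as the build; an aligner, a counter, the strand setting and the handling of shared reads are not named by the sources at hand. Counts were tested with edgeR 4.0.16 in R 4.3.3 (TMM, filterByExpr with a minimum count of 10, quasi-likelihood F test, no covariate, Benjamini-Hochberg over 17268 genes). Log2 CPM used a prior count of 1. DESeq2 1.42.0 and limma 3.58.1 gave alternatives, among them log2(FPKM + 1) and log2(FPKM + 0.1). In simulated counts holding 50 changed genes per fold size, recovery by edgeR was 18% of 1.5-fold, 62% of 2-fold, 68% of 3-fold and 82% of 4-fold changes, with 4 false calls among 16939 genes. The simulation gave both groups the same spread for a gene, whereas most genes varied more within NC here. These rates therefore need not hold for this comparison. Members, lists, ratios and the rule for named genes (all 8 members, the 10 most similar genes, and up to 6 genes of smallest p per list, 2 for other cell types) were chosen with earlier results of these data known.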

Additional observations from a re-analysis of the deposited data

Results flagged for a closer look

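Klrg1 stood at 21.2 CPM in burn 2, and the next burn library had 11.2 CPM, a gap of 0.789 of the whole range of the 6 burn libraries. It was flagged as a library far from the others of its group. In all, 20 groups of values were looked at (8 genes and 2 ratios in 2 groups of libraries) and 1 was flagged, and chance alone flags about 1 in 20.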

How the results depend on the processing

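With all libraries edgeR called 0 genes. DESeq2 called 85, limma 1 on log2(FPKM + 1) and 1 on log2(FPKM + 0.1), fits without 1 library 0 to 10, and the fit without both NC 2 and NC 3 called 375, with 0 of the 8 receptors among them; the cause was not tested. Values in burn were lower for 8 of 8 receptors in every other fit, and without both NC 2 and NC 3 the edgeR difference turned to 0.061 for Klrd1 and 0.66 for Klrg1. In the permutation test, leaving out both turned Klrd1 to 0.072, Klrg1 to 0.62 and the Klrc1 over Klrc2 ratio to 0.41, and Klrk1 (-0.33) and Klrc2 (-0.52) no longer passed. Leaving out 1 library at a time gave log2 differences in that test of -1.18 to -0.60 for Klrk1 (4 of 10 fits past 0.05), -1.25 to -0.71 for Klrc2 (2 of 10), -1.24 to -0.53 for Klre1, -0.44 to -0.14 for Klrd1, -1.70 to -0.79 for Klrc1, -0.73 to -0.22 for Klrb1c and -0.59 to -0.069 for Ncr1. The last 5 passed only without NC 4, and Klrg1 (-1.23 to -0.24) in none. Leaving out NC 4, the lowest NC library for all 8 receptors, had to widen every difference. Leaving out NC 2 and NC 3 had to lower the NC level wherever these were the highest libraries. Those directions were fixed by the choice of libraries and add no support. The Klrk1 over Klrd1 ratio ranged from -0.74 to -0.46. It passed in 10 of 10, but that outcome was fixed, since groups that do not overlap stay apart when a library is left out. Deviations of same-numbered libraries correlated at -0.05, -0.04, -0.07 and 0.34, which cannot show whether libraries were collected or processed in numbered pairs. With the number as a block edgeR called 0 genes. Every receptor had at least 221 counts in every library, so the spread among libraries, not depth, sets the error.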

Other observations

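Over all 28 pairs of the 8 receptors, the log2 ratio within a library separated the groups fully for 2, Klrk1 over Klrd1 and Klrc2 over Ncr1. Klrc2 over Ncr1 had a mean log2 ratio of -0.23 in burn and 0.34 in NC, a difference of -0.57. This pair was noticed after the values were seen and is given without a test. Klrk1 over Klrc2 had 1.43 in burn and 1.38 in NC, a shift of 0.04 in the mean. Other pairs shifted about as little, among them Klrk1 over Klre1 (-0.05) and Klrd1 over Ncr1 (0.055). These pairs were likewise picked after the values were seen.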
